A study of Mus musculus with 15 samples.

Results

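The collagen genes of the mouse trigeminal ganglion (TG) are described here from RNA-seq of 15 ganglia. A gene was taken as a collagen gene when it was protein-coding and its symbol was Col followed by a number, the letter a and a second number. Of the 55573 genes in the table, 44 met that rule. The 30 with a mean of at least 10 counts over the 15 samples are described, and they comprise 10 fibrillar, 6 basement membrane and 14 other collagen genes. All 30 also passed the low-count filter of the test, which kept 16567 genes. The other 14 (Col4a3, Col4a6, Col6a4, Col6a5, Col6a6, Col7a1, Col9a1, Col10a1, Col11a2, Col13a1, Col17a1, Col19a1, Col20a1 and Col22a1) had means of 0.533 to 9.93 counts. Of these 14, 1 passed the filter, Col19a1, and its groups overlapped in every comparison (log2 fold change 0.68 for RvD6si and -0.60 for RvD6 against vehicle, edgeR adjusted p of 0.823 and 0.872). At the edge of the rule, Col19a1 had a mean of 9.93 counts and Col4a5, the lowest gene included, had 13.3.

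All ganglia came from male CD1 mice, an outbred albino stock, that were 10 weeks old when bought. The right cornea of every mouse had been injured by removing the epithelium with the front layer of the stroma inside a 2-mm circle, so the vehicle group is an injured control and no uninjured ganglion was analysed here. The eye was then treated 3 times a day with vehicle (n = 5), with the lipid mediator resolvin D6 (RvD6, n = 5) or with the RvD6 isomer RvD6si (n = 5), and the right TG was taken at day 12. RvD6si is a stereoisomer of RvD6 with hydroxyl groups on the same carbons, and the RvD6si used by the study had been isolated from pooled tears and cornea culture media of injured mice. Whether the lipids were given at the same dose is not stated in the sources used here, so their readouts are compared at matched times only.

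The TG holds the cell bodies of the sensory neurons that supply the cornea and face, together with satellite glia, Schwann cells, vessels and a connective tissue sheath. Collagens are proteins of 3 chains wound into a triple helix, which requires glycine at the first position of each repeating unit of 3 residues. Fibrillar collagens (types I, III and V here in the main) form the fibrils of connective tissue, type IV forms the network of basement membranes around glia, axons and vessels, and the remaining types bind to fibrils, form beaded microfilaments or span the cell membrane. In peripheral ganglia, fibroblasts, mural cells and Schwann cells are known sources of them.

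The counts assigned to genes totalled 4125962 to 9903396 per sample, with a median of 7756538. Of these counts, the 30 collagen genes held 0.0382 to 0.0715% in the vehicle group, 0.0641 to 0.106% in the RvD6 group and 0.0551 to 0.0860% in the RvD6si group. Sensory neuron markers (12 genes, summed level 2504 to 5044) and markers of Schwann cells and satellite glia (10 genes, 4788 to 8168) were high in all 15 samples. These and all levels below are RPKM, that is, counts per kilobase of exon length relative to the library total, in the usual RPKM scale, with the total scaled by the TMM factor of edgeR. The list of 10 skeletal muscle genes summed to 879 RPKM in RvD6 replicate 8 and 1178 in RvD6 replicate 9, against 4.91 to 182 in the other 13 samples. The counts of collagen genes, and the sums, ratios and fold changes with RvD6 that the text turns on, are also given without those 2 libraries, a choice made after seeing the data.

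The repeat that defines the family can be read in the coding sequence, since the 4 codons of glycine are GGN. A run of at least 20 consecutive triplets of codons that each start with GGN occurred in all 30 collagen genes described and in 20 of 21734 other genes with a coding sequence (0.092%). The longest run differed by class. It covered 216 to 344 triplets in the fibrillar genes (median 338), 30 to 66 in the basement membrane genes (median 41) and 23 to 113 in the others (median 48.5). The first 6 triplets of the longest run are printed for the chains that the results below turn on, with the GGN codons in capitals. For Col4a1 the end of its run of 40 triplets is printed instead, to show an interruption, and only 3 of its 6 triplets start with GGN. Sequences are spliced, 5′ to 3′ on the coding strand, from the GENCODE M21 transcripts on GRCm38.
Col1a1 (chr11:94939451-94939741, plus strand, exons 6 to 7, codons 168 to 185): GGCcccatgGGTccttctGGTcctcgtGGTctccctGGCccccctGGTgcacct
Col1a2 (chr6:4512406-4515254, plus strand, exons 6 to 7, codons 97 to 114): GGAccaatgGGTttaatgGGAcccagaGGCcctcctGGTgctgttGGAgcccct
Col3a1 (chr1:45323762-45325377, plus strand, exons 5 to 6, codons 164 to 181): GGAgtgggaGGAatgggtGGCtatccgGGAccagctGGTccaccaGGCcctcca
Col4a1 (chr8:11244525-11245066, minus strand, exons 8 to 9, codons 154 to 171): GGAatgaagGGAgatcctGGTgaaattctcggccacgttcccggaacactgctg
Col4a2 (chr8:11429447-11429500, plus strand, exon 29, codons 777 to 794): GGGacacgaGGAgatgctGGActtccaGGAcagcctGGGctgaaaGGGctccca
Col6a1 (chr10:76719659-76720996, minus strand, exons 8 to 9, codons 256 to 273): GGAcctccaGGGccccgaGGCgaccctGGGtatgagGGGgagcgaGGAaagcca

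The family also shared length and base composition. The median exonic length was 7542.5 bases in the 30 collagen genes and 3968 bases over all genes tested, and 28 of the 30 were longer than that median. Their median GC content was 56.0%, against 49.3%. The exons of 24 overlapped no other gene. The partner genes of type IV collagen lie head to head on chromosome 8, Col4a1 at 11198423 to 11312826 on the minus strand and Col4a2 at 11312805 to 11449287 on the plus strand, and their exons overlap by 22 bases. Col15a1, Col5a1 and Col9a3 overlap other genes on the opposite strand and Col3a1 overlaps Gm47302 on the same strand. The libraries did not keep the strand, so the counts of these 6 genes are less certain at the shared bases.

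In vehicle ganglia the highest level per length was that of Col1a2, the second chain of type I collagen, the main collagen of connective tissue. Its level was 16.3, 15.3, 8.75, 12.6 and 12.0 RPKM in vehicle replicates 1 to 5. It was the highest of the 30 genes in 4 of these samples, and in replicate 3 the transmembrane collagen Col23a1 was higher (9.23 RPKM). The type IV chains Col4a2 (7.02 ± 2.49 RPKM, SD, n = 5) and Col4a1 (4.81 ± 1.43) came next in mean level, on either side of Col23a1 (6.80 ± 1.89). Col3a1, the type III collagen of distensible tissues such as skin and vessels, followed at 4.75 ± 2.21 RPKM. The fibril-associated Col14a1 was at 4.63 ± 1.33, the type V chain Col5a3 at 4.16 ± 1.23, and Col28a1, a collagen known from Schwann cells of peripheral nerve, at 4.13 ± 0.796. Neighbours in this order had overlapping ranges over the 5 samples, so their order is not separated by the spread between samples. Within the basement membrane class Col15a1, which links basement membranes to the tissue around them, was next at 0.807 ± 0.303 RPKM.

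**Figure D1:**
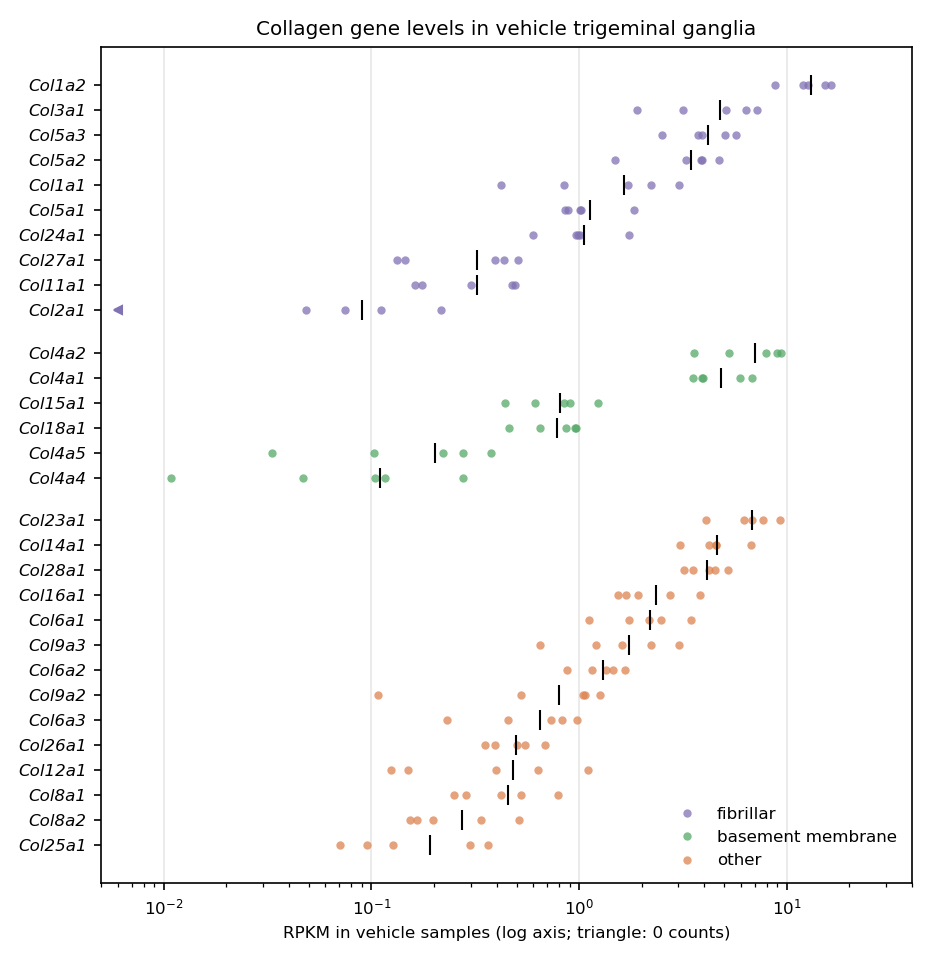
Levels of the 30 collagen genes in the 5 vehicle ganglia, in RPKM on a log axis, by class. Points are samples, bars are means, and a triangle marks a sample with 0 counts; Col1a2 lies highest at 8.75 to 16.3 RPKM and Col2a1 lowest, with 1 sample at 0.

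Fibrillar genes made up 42.7% of the summed vehicle level of the 30 genes, basement membrane genes 19.6% and the others 37.8%. Col1a2 alone made up 18.5%, Col4a2 10.0% and Col4a1 6.87%. Col1a1, the partner of Col1a2 in type I collagen, was at rank 13 with 1.64 ± 1.04 RPKM. The spread between vehicle samples ran from a coefficient of variation of 19.3% for Col28a1 to 91.9% for the low Col4a4, with a median of 40.3% over the 30 genes. The corresponding medians were 42.8% in RvD6 and 39.8% in RvD6si samples.

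The summed level of the 30 genes was 52.5 to 86.4 RPKM in vehicle (70.1 ± 13.7), 81.8 to 130 in RvD6 (107 ± 18.9) and 67.9 to 99.1 in RvD6si samples (83.2 ± 12.2). The fibrillar sum was 29.9 ± 8.41 RPKM in vehicle, 55.5 ± 14.3 in RvD6 and 36.3 ± 7.64 in RvD6si samples. The basement membrane sum was 13.7 ± 4.08, 17.1 ± 3.36 and 16.4 ± 2.59 RPKM in the same order, and its ranges overlapped. In RvD6 samples the type I chains took 22.9 to 35.3% of the sum of the family, above all vehicle samples (18.3 to 22.4%) and overlapping the RvD6si samples (18.4 to 26.3%). By mean level Col1a1 was at rank 4 in the RvD6 and at rank 11 in the RvD6si group. Without RvD6 replicates 8 and 9, the RvD6 sum was 94.4 to 115 RPKM for the 30 genes and 46.0 to 70.1 for the fibrillar genes, and the type I share was 31.5 to 35.3%. These sums and shares are descriptions and were not tested. In a bulk sample, fewer cells of a type cannot be told apart from less RNA per cell.

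The first comparison asked which collagen genes differed between ganglia of RvD6-treated and vehicle-treated mice. Type I and type III chains, Col8a2 and Col6a2 were higher in most RvD6 samples, by 1.92-fold to 4.88-fold, and no collagen gene was lower by more than 1.31-fold. None passed the Benjamini-Hochberg adjusted threshold of 0.05 in the quasi-likelihood test of edgeR, which called 0% of all genes tested in this comparison. At an unadjusted p below 0.05, 8 of the 30 were higher (26.7%) and 0 were lower, against a background over all genes of 7.63% higher and 5.99% lower. DESeq2 on the same counts called 4 of the 30 higher (Col1a1, Col1a2, Col8a2 and Col6a2), where it called 1.92% of the genes it tested and 1.44% as higher. The median log2 fold change was 0.59 over the 30 genes, with 26 above 0, and 0.02 over all genes tested.

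Col1a1 (chr11:94936224-94953042) had 3.02, 2.21, 0.849, 1.72 and 0.419 RPKM in vehicle replicates 1 to 5 and 9.95, 6.45, 2.97, 11.8 and 7.62 in RvD6 replicates 6 to 10. In 4 of 5, the RvD6 samples lay above all vehicle samples, and RvD6 replicate 8 lay just below vehicle replicate 1. The log2 fold change was 2.23 (SE 0.493), a 4.70-fold difference, with an edgeR adjusted p of 0.0967 and a DESeq2 adjusted p of 0.00134.

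Col1a2 (chr6:4504814-4541544) had 30.5, 25.1, 15.8, 25.1 and 28.4 RPKM in the RvD6 samples, so that again 4 were above the vehicle range of 8.75 to 16.3 and replicate 8 was within it. Its log2 fold change was 0.94 (SE 0.206) with an edgeR adjusted p of 0.0967, and DESeq2 gave an adjusted p of 0.00348. For Col3a1 (chr1:45311538-45349706) the vehicle samples had 7.21, 6.38, 1.90, 3.16 and 5.11 RPKM. The RvD6 samples had 17.9, 5.12, 5.46, 13.4 and 9.96. Of these, 3 were above the vehicle range. The log2 fold change was 1.13 (SE 0.357, edgeR adjusted p = 0.191).

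**Figure D2:**
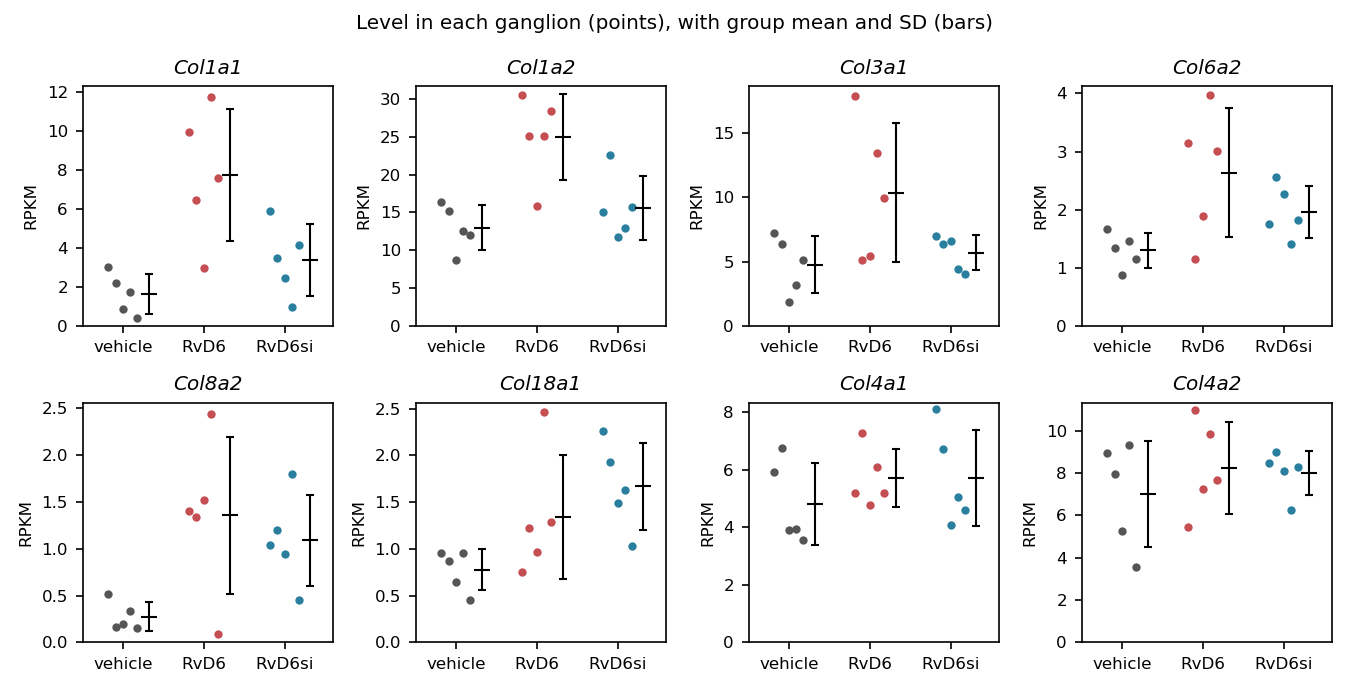
Levels in RPKM of Col1a1, Col1a2, Col3a1, Col6a2, Col8a2, Col18a1, Col4a1 and Col4a2 in each of the 15 ganglia, by group, with the mean and SD of each group. Of the 5 RvD6 samples, 4 lie above all vehicle samples for Col1a1 and Col1a2, while the 3 groups overlap for Col4a1 and Col4a2.

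Col8a2, a short-chain collagen known from the basement membrane of the corneal endothelium, had 0.153 to 0.516 RPKM in vehicle samples and 1.40, 1.3, 1.52, 2.44 and 0.0931 in RvD6 samples. Replicate 10 was thus below all vehicle samples and the others above them. The log2 fold change was 2.29 (SE 0.619, edgeR adjusted p = 0.152, DESeq2 adjusted p = 0.0197). Col6a2, a chain of the beaded type VI filaments, was at 1.30 ± 0.303 RPKM in vehicle and 2.63 ± 1.11 in RvD6 samples, with a log2 fold change of 1.02 (95% interval 0.39 to 1.65, edgeR adjusted p = 0.177, DESeq2 adjusted p = 0.0450). Its partners Col6a1 and Col6a3 had log2 fold changes of 0.67 and 0.55, with intervals that included 0.

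Col2a1, the fibrillar collagen of cartilage, was at 0 to 0.215 RPKM in vehicle and 0.186 to 0.797 in RvD6 samples (log2 fold change 2.24, SE 0.892, edgeR adjusted p = 0.291), and it was the lowest of the 30 genes in mean level in vehicle samples. Col18a1, a basement membrane collagen that is the source of endostatin, had a log2 fold change of 0.78 (edgeR adjusted p = 0.331). Col12a1, which binds type I fibrils and was named after its values were seen, had 1.43 (edgeR adjusted p = 0.215). The largest decreases were 0.38 for Col9a3, 0.09 for Col26a1 and 0.07 for Col24a1 and Col5a3 on the log2 scale, none past the threshold. Groups that did not overlap occurred for none of the 30 genes, against 2.15% of all genes with the RvD6 samples above vehicle and 1.62% with them below.

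Without the filter on low counts edgeR called 2 of the 30 genes, Col1a1 (adjusted p = 0.0203) and Col1a2 (adjusted p = 0.0403), against 0.171% of the 32699 genes then tested. Without RvD6 replicates 8 and 9, 6 of the 30 genes were higher (background 5.81%) and 0 lower (background 5.13%) at an unadjusted p below 0.05, and none passed the edgeR adjusted threshold. The log2 fold changes were then 2.28 for Col1a1, 1.10 for Col1a2, 1.2 for Col3a1, 1.77 for Col8a2 and 0.90 for Col6a2. Those of Col18a1, Col2a1 and Col12a1 were 0.48, 1.67 and 1.35, and that of Col9a2 turned from 0.04 to -0.79. DESeq2 then called 2 of the 30 higher, Col1a1 and Col1a2, where it called 0.484% of its genes as higher.

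Marker lists of several cell types were also compared between RvD6 and vehicle samples, and not all of them differed. The mural cell list (10 genes) summed to 51.2 to 127 RPKM in RvD6 against 32.4 to 46.0 in vehicle samples. Of its 9 tested genes, 3 were higher and 0 lower at an unadjusted edgeR p below 0.05. Over all genes tested, 7.63% were higher and 5.99% lower at that level. The macrophage list (10 genes) was at 90.0 to 150 against 56.3 to 91.6 RPKM, with 4 of its 10 genes higher and 0 lower at an unadjusted p below 0.05. The osteoblast and cartilage list (12 genes) was at 44.6 to 81.1 against 29.5 to 58.2 RPKM, with 5 of its 9 tested genes higher and 1 lower at an unadjusted p below 0.05. Of these 12 genes, 2 (the cartilage genes Acan and Matn3) were at 0 in all vehicle and RvD6si samples. Both were picked with their values in view and do not stand for the list. The erythroid and marrow precursor list was at 4705 to 8607 against 1936 to 4027 RPKM, with 11 of its 11 genes higher at an unadjusted p below 0.05. At that level 9 of the 9 skeletal muscle genes tested were higher too. Their summed list overlapped, with RvD6 replicate 7 at 38.4 RPKM and vehicle samples at 8.86 to 83.4. Sensory neuron markers were lower (2504 to 4420 against 4486 to 5044 RPKM). The endothelial list (10 genes) overlapped, at 76.0 to 98.9 RPKM in RvD6 and 70.7 to 128 in vehicle samples. Of its genes, 2 were higher and 2 lower at an unadjusted edgeR p below 0.05. The summed fibroblast list (10 genes) overlapped, at 167 to 236 RPKM in RvD6 and 161 to 257 in vehicle samples, with its marker Clec3b at 0 in all vehicle samples. Of its 7 tested genes, 1 was higher and 0 were lower at an unadjusted edgeR p below 0.05, with a median log2 fold change of 0.07. Its low member Pi16 did not overlap, at 0.324 to 0.551 RPKM in RvD6 and 0 to 0.195 in vehicle samples, and Dpt had means of 0.555 and 0.0388 RPKM. These members were picked with their values in view and do not stand for the list. Over the other 3 RvD6 samples, without replicates 8 and 9, the mural list was at 54.8 to 127 RPKM and the macrophage list at 90.9 to 150. The osteoblast and cartilage list was then at 59.9 to 81.1 RPKM. The erythroid and marrow precursor list was at 6570 to 8607 RPKM, still above all vehicle samples. The skeletal muscle list was at 38.4 to 182 RPKM, overlapping vehicle, and the sensory neuron list was at 2931 to 4178. The part of these cell types in the collagen differences was not tested.

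**Figure D3:**
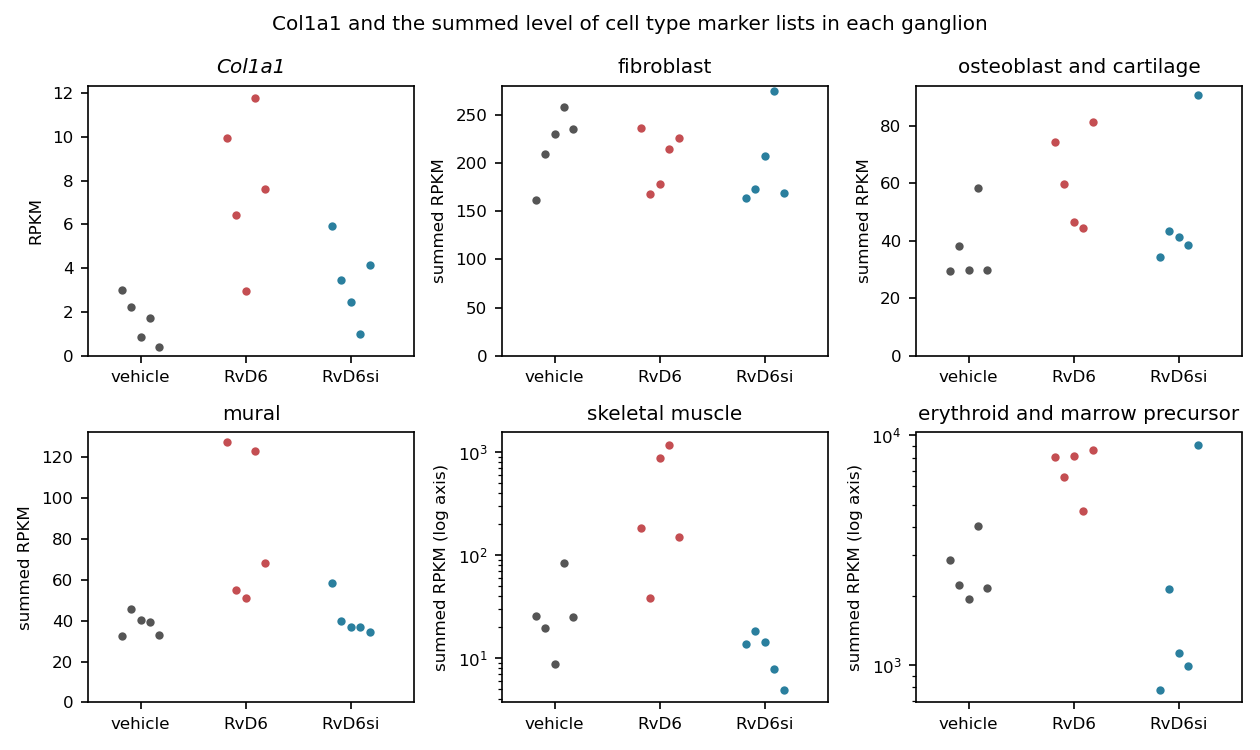
Col1a1 and the summed levels of marker lists in each of the 15 ganglia, in RPKM, with log axes for skeletal muscle and for erythroid and marrow precursor genes. RvD6 samples lie above all vehicle samples for the mural list (51.2 to 127 against 32.4 to 46.0 RPKM) and for the erythroid and marrow precursor list. The summed fibroblast list overlaps, with 1 of its 7 tested genes higher at an unadjusted edgeR p below 0.05.

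The second comparison set RvD6si against the same 5 vehicle samples, so both lipid comparisons share their controls. None of the 30 collagen genes passed the edgeR adjusted threshold, which 0.670% of all genes did. The 3 at an unadjusted p below 0.05, Col18a1, Col8a2 and Col1a1, had fitted folds of 2.05 to 3.93, and Col1a1 overlapped vehicle in 2 of 5 samples. Col2a1 and Col9a2 had folds in the same range (2.62 and 2.10) with intervals that included 0. The fibrillar collagens Col1a2 and Col3a1 had log2 fold changes of 0.27 and 0.26. At an unadjusted p below 0.05, 3 were higher and 0 were lower, against a background of 8.69% higher and 7.30% lower, so their share of 10% was near the background. DESeq2 called 1, Col18a1, where it called 8.13% of the genes it tested and 4.82% as higher, and it gave no adjusted p for 12 of the 30. DESeq2 without RvD6 replicates 8 and 9 also called Col18a1 alone, where it called 4.77% of its genes as higher. The median log2 fold change over the 30 was 0.25, with 22 above 0, against 0.02 over all genes.

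Col18a1 (chr10:77052178-77166548) had 0.961, 0.867, 0.651, 0.959 and 0.457 RPKM in vehicle replicates 1 to 5. It had 2.26, 1.93, 1.5, 1.63 and 1.03 RPKM in RvD6si replicates 11 to 15. All 5 RvD6si samples were above all vehicle samples, as for 2.45% of all genes tested (2.46% had them all below), and it was the sole collagen gene of the 30 whose groups did not overlap. The log2 fold change was 1.10 (SE 0.343, 95% interval 0.38 to 1.82), with an edgeR adjusted p of 0.118 and a DESeq2 adjusted p of 0.0268.

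For Col8a2 (chr4:126286793-126314330) the RvD6si samples had 1.04, 1.2, 0.942, 1.80 and 0.454 RPKM, and 4 of the 5 were above the vehicle range. Its log2 fold change was 1.98 (SE 0.615, edgeR adjusted p = 0.118). Col1a1 had 5.91, 3.48, 2.44, 0.991 and 4.14 RPKM in the RvD6si samples, 3 of them above the vehicle range, with a log2 fold change of 1.04 (SE 0.484, edgeR adjusted p = 0.303). Col2a1 had a log2 fold change of 1.39 (SE 0.884, edgeR adjusted p = 0.464) and overlapped between groups.

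Col1a2 had 15.1, 22.6, 11.7, 12.9 and 15.7 RPKM in the RvD6si samples, with 1 above the vehicle range, and a log2 fold change of 0.27 (95% interval -0.17 to 0.70). Col3a1 overlapped throughout at 4.06 to 7.00 RPKM (log2 fold change 0.26, 95% interval -0.48 to 1.01). The largest decreases were 0.60 on the log2 scale for Col24a1, a minor fibrillar chain (edgeR adjusted p = 0.50), 0.42 for the fibril-associated Col9a3 and 0.33 for Col15a1. The type VI chains had log2 fold changes of 0.69 (Col6a1), 0.60 (Col6a2) and 0.52 (Col6a3), and each interval included 0. Leaving out 1 sample at a time gave 2 to 6 collagen genes at an unadjusted p below 0.05. It was 6 without RvD6si replicate 14, 5 without vehicle replicate 1, and 2 without RvD6 replicate 10, RvD6si replicate 12 or 15, or vehicle replicate 3 or 4. No share over all genes is given for these fits, so their counts are not set against a background. Without RvD6 replicates 8 and 9, 4 were higher (background 8.24%) and 0 lower (background 7.15%).

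The mural list was at 34.7 to 58.6 RPKM in the RvD6si samples, the macrophage list at 40.7 to 116, the skeletal muscle list at 4.91 to 18.2, the fibroblast list at 164 to 274 and the osteoblast and cartilage list at 34.4 to 90.7, each overlapping vehicle. At an unadjusted edgeR p below 0.05, 1 of 9 tested osteoblast and cartilage genes was higher and 0 lower. It also passed the adjusted threshold, and the list's median log2 fold change was 0.78. Of the Schwann and satellite glia genes 2 were higher and 2 lower, and of the macrophage genes 1 and 1. Likewise 1 mural gene was higher, and 1 skeletal muscle and 1 fibroblast gene were lower. Over all genes tested, 8.69% were higher, 7.30% lower and 0.670% past the adjusted threshold. The erythroid and marrow precursor list ranged from 778 to 9101 RPKM, the highest value being that of RvD6si replicate 15. That sample had the lowest Col18a1 and Col8a2 of its group, and the part of these cell types was not tested.

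**Figure D4:**
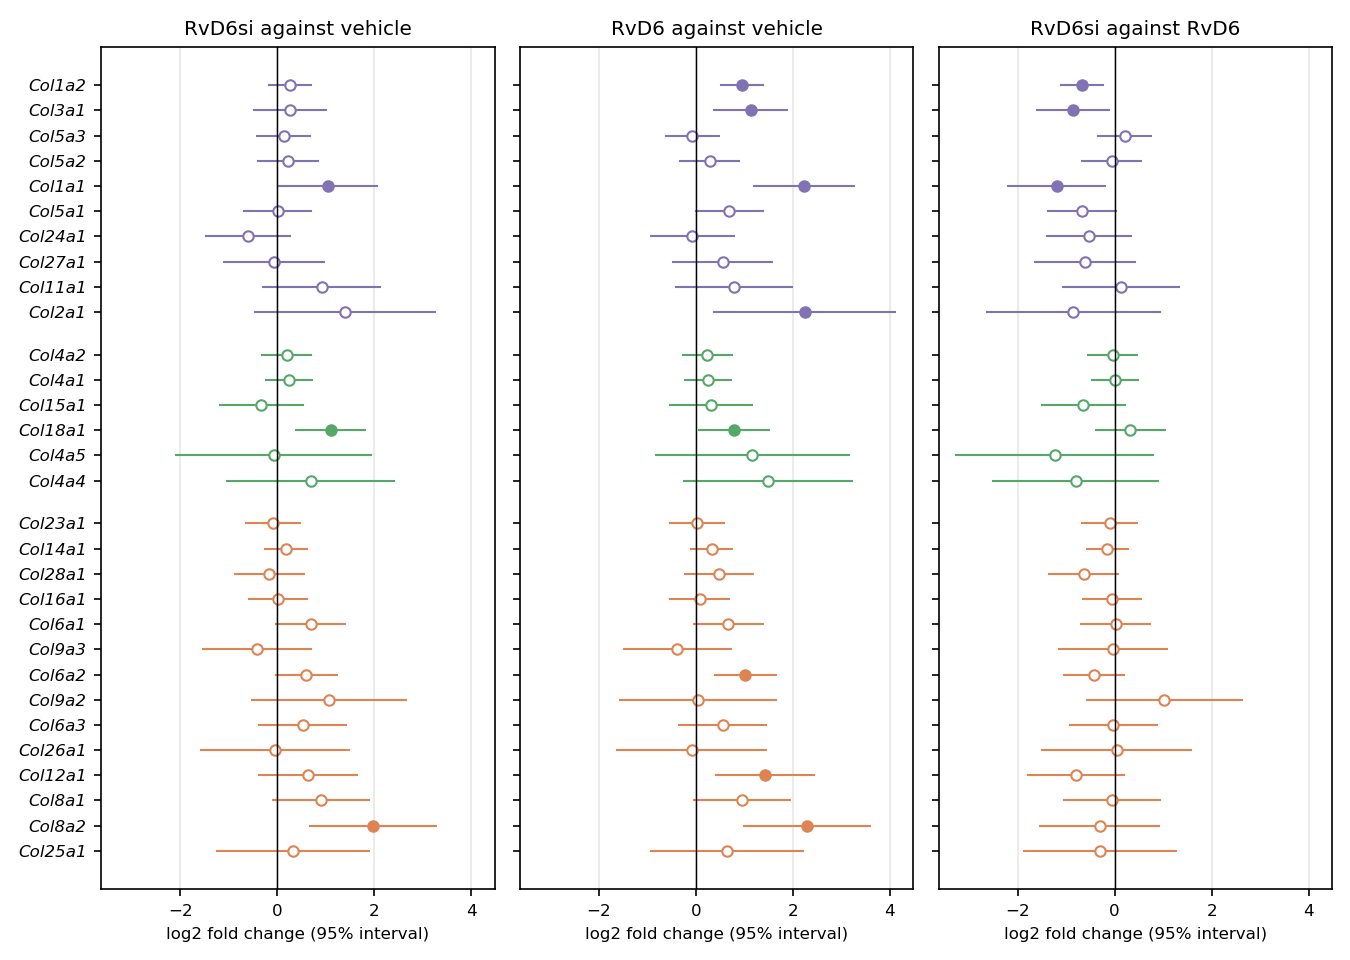
The log2 fold change of each of the 30 collagen genes with its 95% interval from edgeR, for each lipid against vehicle and for the isomer against RvD6. From the top, colours mark fibrillar (purple), basement membrane (green) and other collagens (orange). Filled points have an unadjusted p below 0.05, which 3 genes had with RvD6si, 8 with RvD6 and 3 between the lipids; none passed the adjusted threshold of 0.05.

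The last comparison tested the difference between the stereoisomers at day 12 for all 30 genes, as the RvD6si group against the RvD6 group without pairing of samples. The type I and type III chains were lower with RvD6si than with RvD6, by 1.6-fold to 2.29-fold, and the 95% intervals of the other chains included 0. None of the 30 passed the edgeR adjusted threshold (0.235% of all genes did). At an unadjusted p below 0.05, 0 were higher and 3 were lower, with backgrounds of 4.18% and 4.64%, and DESeq2 called 0 of the 30 against 0.936% of its genes. For no gene of the 30 did the groups separate, against 0.712% of all genes with RvD6si above and 1.10% with it below. The median log2 difference was -0.22, with 7 of the 30 above 0, and by class it was -0.64 for fibrillar, -0.34 for basement membrane and -0.08 for other collagens. Marker lists also differed between the lipids. At an unadjusted edgeR p below 0.05, 9 of 9 tested skeletal muscle and 3 of 9 mural genes were lower with RvD6si. Of these, 7 and 2 passed the adjusted threshold. So were 5 of 10 macrophage and 4 of 11 erythroid and marrow precursor genes lower, with 0 higher in these lists. Of the sensory neuron genes 2 were higher and 0 lower, and of the fibroblast genes 0 were higher and 1 lower. The part of these cell types was not tested.

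Col1a2 was 11.7 to 22.6 RPKM with RvD6si and 15.8 to 30.5 with RvD6, and 4 of the 5 RvD6si samples lay below all RvD6 samples. The log2 difference was -0.68 (95% interval -1.11 to -0.25, edgeR adjusted p = 0.273). Col1a1 differed by -1.2 (95% interval -2.19 to -0.20, edgeR adjusted p = 0.455) and Col3a1 by -0.86 (95% interval -1.61 to -0.12, edgeR adjusted p = 0.477). For both, 2 RvD6si samples were below all RvD6 samples.

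Of the type IV chains, Col4a1 and Col4a2 had almost the same mean with either lipid. The log2 difference was 0.00 for Col4a1 (95% interval -0.47 to 0.47) and -0.04 for Col4a2 (95% interval -0.54 to 0.47). The low Col4a4 differed by -0.80 (95% interval -2.51 to 0.90). Col18a1 differed by 0.32 (95% interval -0.39 to 1.03) and Col8a2 by -0.31 (95% interval -1.53 to 0.91), which turned to 0.21 without RvD6 replicates 8 and 9. The largest increases were 1.03 for Col9a2, 0.32 for Col18a1 and 0.21 for Col5a3, and the low Col4a5 had the largest decrease (-1.24, 95% interval -3.26 to 0.79). A p that misses the threshold does not show that the isomers act alike on these genes. Without RvD6 replicates 8 and 9, 3 of the 30 were lower (background 4.24%) and 0 higher (background 4.80%) at an unadjusted p below 0.05, and DESeq2 called 1 lower, Col1a2, where it called 0.451% of its genes as lower. Leaving out 1 sample at a time gave 1 to 5 such genes, with 1 without RvD6 replicate 9 or RvD6si replicate 14 and 5 without RvD6 replicate 7 or RvD6si replicate 12. These counts too are given without the share over all genes in the same fits.

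The level of one chain relative to another in the same sample does not depend on the scaling of that sample. The chains compared belong to 1 trimer or, for Col3a1 to Col1a1, are found together in fibrils. In all, 6 such ratios were compared between the groups in 18 comparisons by two-sided exact permutation tests, where the smallest p that 5 against 5 samples allow is 0.00794. The log2 ratio of Col1a1 to Col1a2, which form the type I trimer, was -2.43, -2.78, -3.35, -2.87 and -4.81 in vehicle samples and -1.62, -1.96, -2.40, -1.09 and -1.90 in RvD6 samples. All RvD6 samples were above all vehicle samples. The mean ratio was 1.45 higher on the log2 scale (exact permutation p = 0.00794, adjusted p = 0.0714) and did not pass the threshold after adjustment. That p is already the smallest possible. Adjusted over 18 comparisons, it could pass only if more of them also reached it. Missing the threshold was thus largely set by the design and says little about the ratio itself. In RvD6si samples it was -2.38 ± 0.88 (SD, n = 5) and overlapped both groups.

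The log2 ratio of Col3a1 to Col1a1 was 1.68 ± 1.09 in vehicle and 0.39 ± 0.50 in RvD6 samples, lower by 1.28 (exact permutation p = 0.00794, adjusted p = 0.0714). This ratio shares Col1a1 with the Col1a1 to Col1a2 ratio, so its result is not independent of that one. The groups did not overlap, though their nearest samples were at 0.88 and 0.87. Without vehicle replicate 5, whose Col1a1 was the lowest of all samples, it was lower by 0.81 (exact permutation p = 0.0317, adjusted p = 0.250), and the Col1a1 to Col1a2 ratio was higher by 1.06 (exact permutation p = 0.0159, adjusted p = 0.250). The Col4a1 to Col4a2 ratio was -0.50, -0.51 and -0.53 in vehicle, RvD6 and RvD6si samples, with differences of -0.02 to -0.00 (exact permutation test, adjusted p = 0.984). Leaving out RvD6 replicates 8 and 9, the ratio of Col1a1 to Col1a2 was higher by 1.42 and that of Col3a1 to Col1a1 lower by 1.38 (exact permutation p = 0.0536, adjusted p = 0.482 for both). All the other comparisons of the 18 on all samples had adjusted p-values of at least 0.607 in the same exact tests. A ratio's level rests on the exonic lengths used (6563 bases for Col1a1 and 12426 for Col1a2), but its difference between groups does not.

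**Figure D5:**
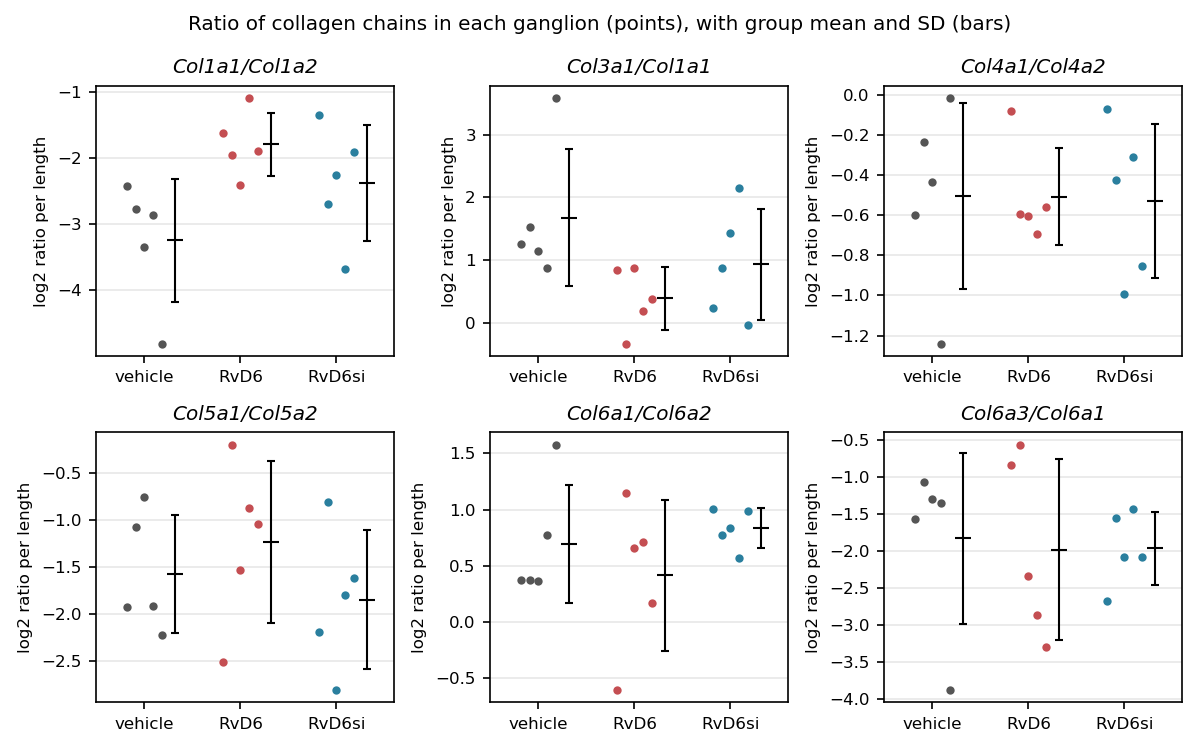
The log2 ratio per length of 6 pairs of collagen chains in each ganglion, with the mean and SD of each group. The Col1a1 to Col1a2 ratio of all 5 RvD6 samples is above that of all 5 vehicle samples (means -1.79 and -3.25), while the Col4a1 to Col4a2 ratio is level at -0.50 to -0.53.

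The genes that modify, cross-link and bind collagen were followed in a list of 68, of which 62 were tested. In RvD6si against vehicle 1 of the 62 (1.61%) was called, against 0.670% of all genes tested. It was Itgb1, which encodes the β1 integrin chain shared by the collagen-binding integrins. Itgb1 had 22.3 to 32.4 RPKM in vehicle samples and 71.0, 47.3, 43.5, 48.3 and 47.3 in RvD6si samples. All RvD6si samples were thus above vehicle, as for 1 of the 62 and for 2.45% of all genes tested. It rose by 0.89 on the log2 scale (SE 0.196, edgeR adjusted p = 0.0430). DESeq2 gave an adjusted p of 0.00120. The edgeR call was kept in 4 of the 15 fits that left out 1 sample, where the log2 fold change was 0.75 to 0.94 and the adjusted p ran from 0.0165 to 0.145. It was lost without vehicle replicate 1, 2, 3, 4 or 5, RvD6 replicate 6 or 7, and RvD6si replicate 11, 13, 14 or 15. Removing each sample's trend on gene length gave 0.81 (edgeR adjusted p = 0.0601). The call was kept with RLE factors, a filter on a mean of 10 counts, no filter, only the 2 groups compared, the trend on GC content removed and without RvD6 replicates 8 and 9 (edgeR adjusted p of 0.0199 to 0.0432). In RvD6 against vehicle Itgb1 had a log2 fold change of 0.45 (edgeR adjusted p = 0.325), and RvD6si differed from RvD6 by 0.44 (95% interval 0.03 to 0.85, edgeR adjusted p = 0.519).

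The list of collagen-binding proteoglycans also holds the matricellular protein Sparc. Of its 9 genes tested, 3 of the small leucine-rich family were higher with RvD6 at an unadjusted p below 0.05, where 7.63% of all genes were. The more abundant Dcn, Ogn and Lum of that family (vehicle means 186, 283 and 71.3 RPKM) were not among them, and 0 of the 9 were lower. Aspn (asporin) had 0.146 to 1.11 RPKM in vehicle samples, 2.25 to 10.9 in RvD6 and 0.0614 to 1.92 in RvD6si samples, so that all RvD6 samples were above the other 10. The log2 fold change against vehicle was 3.58 (SE 0.747, edgeR adjusted p = 0.0967), and RvD6si against RvD6 gave -3.15 (SE 0.741, edgeR adjusted p = 0.104). Bgn (biglycan) was 3.99 to 5.10 RPKM in vehicle and 5.59 to 13.3 in RvD6 samples, without overlap, with a log2 fold change of 0.98 (edgeR adjusted p = 0.0967). Of the 62 pathway genes, these 2 had all RvD6 samples above vehicle, against 2.15% of all genes tested. Between the lipids, 1 of the 62 had all RvD6si samples below RvD6, against 1.10% of all genes. Fmod (fibromodulin), which regulates fibril assembly, had a log2 fold change of 1.89 with RvD6 against vehicle (edgeR adjusted p = 0.0967). DESeq2 called all 3 in RvD6 against vehicle and Aspn in RvD6si against RvD6, and edgeR called 0 of the 62 in either comparison. Over all genes it tested, DESeq2 called 1.44% as higher in the first and 0.936% in either direction in the second. With RvD6 replicates 8 and 9 left out, Aspn had 3.62, Bgn 0.91 and Fmod 1.74 against vehicle on the log2 scale, and DESeq2 called Aspn and Bgn.

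At an unadjusted p below 0.05, 9 of the 62 pathway genes were higher (14.5%, background 7.63%) and 1 lower (1.61%, background 5.99%) in RvD6 against vehicle. In RvD6si against vehicle 4 were higher (6.45%, background 8.69%) and 2 lower (3.23%, background 7.30%). In RvD6si against RvD6 2 were higher (3.23%, background 4.18%) and 5 lower (8.06%, background 4.64%). The higher ones with RvD6 included 4 of the 12 tested basement membrane partners (Lama2, Lama4, Nid1 and Agrn, log2 fold changes 0.39 to 0.54). In the fit without RvD6 replicates 8 and 9 these 4 had 0.27 to 0.48, all with an unadjusted edgeR p above 0.05. The type IV collagens had 0.25 (Col4a1), 0.23 (Col4a2), 1.49 (Col4a4) and 1.17 (Col4a5), and each interval included 0. None of the 20 chain modification and folding genes differed with RvD6 at that level. The gene of highest level per length in each list in vehicle samples was Sparc, a collagen-binding matricellular protein (724 RPKM), the prolyl hydroxylase subunit P4hb (79.8), Itgb1 (27.8), the procollagen C-proteinase enhancer Pcolce2 (14.8) and the laminin chain Lamb1 (11.5). The median log2 fold change over the 62 genes was 0.29 with RvD6, 0.15 with RvD6si and -0.15 between the isomers.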

How the data were processed

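Right trigeminal ganglia of 15 mice in 3 groups of 5 were compared. The labels do not say that the samples of a group are independent beyond their number, so p-values measure the spread between these samples. The authors reverse transcribed RNA from the poly(A) tail with an adapted Smart-seq2 protocol, which keeps no strand, aligned the reads with Rsubread to GRCm38 and counted them on exons with featureCounts and GENCODE M22. The submitters' processing notes list R 3.6.1, Subread 1.6.5, featureCounts and DESeq2. The deposited values are raw counts per gene with the exonic length. All per-sample columns were used (0 left out). Symbols, positions and coding sequences came from GENCODE M21, which named 99.8% of the identifiers.

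The collagen genes, classes, pathway lists and marker lists were chosen with earlier results of these data known. Counts were tested with the quasi-likelihood F test of edgeR 4.0.16 (R 4.3.3, limma 3.58.1), with 15 samples in 1 fit, TMM factors, the filter of edgeR on low counts and Benjamini-Hochberg adjustment over the 16567 genes kept, at a threshold of 0.05. DESeq2 1.42.0 was the alternative test. Adjusted p-values are from edgeR unless DESeq2 is named. RPKM uses the merged exonic length and the TMM-scaled total. Ratios between collagen chains, with 0.5 counts added, were compared by exact permutation tests written in Python 3.11.15 with NumPy 2.4.6 (pandas 2.3.3, SciPy 1.17.1, matplotlib 3.10.9), adjusted over 18 comparisons. Steps were tested on simulated data.

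Named collagen genes were those called, the 3 highest per class in level per length, those without overlap between groups, the 3 largest increases and decreases per comparison and the chains of the ratios. Pathway genes were named when called, without overlap or highest in their list. Col12a1, Col4a4, the pathway genes Fmod, Lama2, Lama4, Nid1, Agrn, Colgalt2 and Mia2 and the marker genes were added with their values in view.

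Totals of 4125962 to 9903396 counts set the depth. The chi-square of counts between same-group libraries was 11.3 to 49.2 per degree of freedom, so no library was a copy and the spread between samples, not depth, set the error of a mean for all but the low genes. Alternatives were RLE factors, no filter or a mean of 10 counts, DESeq2, only the 2 groups compared, removal of each sample's trend on gene length or GC content, each sample left out in turn and, added after seeing the data, removal of RvD6 replicates 8 and 9 (with edgeR, with DESeq2 and for the ratios).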

Additional observations from a re-analysis of the deposited data

Results flagged for a closer look

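Within the groups of 5, 4 of 108 values over 36 measures (levels of the 30 genes and the 6 ratios) had a sample set apart from the others by Dixon's test (critical value 0.71), where chance flags about 1 in 20 groups. Col5a1, a chain of the type V collagen that starts fibrils, was at 1.84 RPKM in vehicle replicate 2, with the nearest other vehicle sample at 1.02. Vehicle replicate 5 was apart in 2 log2 ratios, Col3a1 to Col1a1 (3.58, nearest 1.52) and Col6a3 to Col6a1 (-3.88, nearest -1.56). RvD6 replicate 6 had a Col4a1 to Col4a2 log2 ratio of -0.081, with the nearest RvD6 sample at -0.56.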

How the results depend on the processing

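No collagen gene passed the edgeR adjusted threshold in any of the 15 fits that left out 1 sample, or with RLE factors, a mean of 10 counts, only the 2 groups compared, or the trend on length or GC content removed. Collagen genes called were 1 with DESeq2 in RvD6si against vehicle, and 4 with DESeq2 and 2 without a filter in RvD6 against vehicle. With DESeq2 and without RvD6 replicates 8 and 9 they were 1 in RvD6si against vehicle, 2 in RvD6 against vehicle and 1 in RvD6si against RvD6. Pathway genes called in RvD6si against vehicle were 1 with edgeR, 3 with DESeq2 (Colgalt2, Itgb1 and Mia2, where DESeq2 called 8.13% of all genes tested), 3 with DESeq2 and without RvD6 replicates 8 and 9, 0 with the trend on length removed and 0 to 1 with 1 sample left out. In RvD6 against vehicle they were 0 with edgeR, 3 with DESeq2 (background 1.92%), 2 with DESeq2 and without RvD6 replicates 8 and 9, 2 without a filter (background 0.171%), 1 with only the 2 groups compared and 0 to 1 with 1 sample left out (1, Aspn, without RvD6si replicate 15). In RvD6si against RvD6 they were 0 with edgeR, 1 with DESeq2 (background 0.936%), 1 with DESeq2 and without RvD6 replicates 8 and 9, 1 without a filter and 0 to 1 with 1 sample left out (1, Aspn, without RvD6si replicate 15). The causes were not tested. The higher Col1a1 to Col1a2 ratio with RvD6 was 1.06 to 1.66 with 1 sample left out, 1.37 with 5 counts added and 1.27 from group sums. The lower Col3a1 to Col1a1 ratio was -1.48 to -0.81, -1.21 and -1.09 in the same order. Of the single-gene values under alternatives, 2265 kept their direction and side of the adjusted threshold, 121 changed sign, 24 passed it that had not and 12 lost it, all of Itgb1 in RvD6si against vehicle. With the ratios, 148 values of 35 results changed sign. The main values of these 35 were at most 0.33 in size, and 0 passed the adjusted threshold of edgeR, of DESeq2 or of the exact permutation tests in any setting. Ranges of their log2 values with 1 sample left out included 0. In RvD6 against vehicle, they were -0.22 to 0.17 for Col24a1, -0.21 to 0.059 for Col5a3, -0.048 to 0.32 for Col16a1, -0.53 to 0.37 for Col9a2 and -0.22 to 0.16 for Col23a1. Further ranges were -0.49 to 0.23 for Col26a1, -0.19 to 0.12 for the Col4a1 to Col4a2 ratio and -0.66 to 0.18 for the Col6a3 to Col6a1 ratio. In RvD6si against vehicle, they were -0.57 to 0.28 for Col4a5, -0.53 to 0.17 for Col27a1, -0.10 to 0.26 for Col5a1, -0.094 to 0.27 for Col5a3 and -0.14 to 0.27 for Col16a1. Further ranges were -0.24 to 0.058 for Col23a1, -0.33 to 0.71 for Col25a1, -0.70 to 0.22 for Col26a1, -0.35 to 0.00080 for Col28a1 and -0.21 to 0.097 for the Col4a1 to Col4a2 ratio. The last was -0.65 to 0.058 for the Col6a3 to Col6a1 ratio. In RvD6si against RvD6, they were -0.16 to 0.11 for Col4a1, -0.15 to 0.090 for Col4a2, -0.16 to 0.55 for Col11a1, -0.23 to 0.077 for Col5a2 and -0.020 to 0.34 for Col5a3. Further ranges were -0.21 to 0.087 for Col16a1, -0.28 to 0.37 for Col9a3, -0.26 to 0.14 for Col23a1, -0.97 to 0.016 for Col25a1 and -0.61 to 0.45 for Col26a1. The rest were -0.30 to 0.38 for Col8a1, -0.61 to 0.0084 for Col8a2, -0.11 to 0.37 for Col6a1, -0.27 to 0.32 for Col6a3 and -0.14 to 0.093 for the Col4a1 to Col4a2 ratio. The last was -0.31 to 0.37 for the Col6a3 to Col6a1 ratio. With DESeq2, the value that changed sign was -0.0081 for Col4a1 in RvD6si against RvD6. With DESeq2 and without RvD6 replicates 8 and 9, the values that changed sign were 0.014 for Col5a3, -0.095 for Col16a1 and -0.76 for Col9a2 in RvD6 against vehicle, then -0.055 for Col4a1, 0.13 for Col16a1, 0.085 for Col9a3, 0.20 for Col8a1 and 0.19 for Col8a2 in RvD6si against RvD6. With RLE factors, the value that changed sign was -0.0084 for Col4a1 in RvD6si against RvD6. With a mean of 10 counts, the value that changed sign was -0.0013 for Col4a1 in RvD6si against RvD6. With the trend on GC content removed, the values that changed sign were 0.0089 for Col4a5 in RvD6si against vehicle, then -0.0090 for Col4a1, -0.020 for Col26a1 and -0.0016 for Col6a1 in RvD6si against RvD6. With the trend on length removed, the values that changed sign were -0.023 for Col16a1 and -0.074 for Col23a1 in RvD6 against vehicle, then -0.13 for Col5a1, -0.00099 for Col5a3 and -0.090 for Col16a1 in RvD6si against vehicle, then -0.015 for Col4a1, -0.0068 for Col6a1 and 0.0084 for Col6a3 in RvD6si against RvD6. Without RvD6 replicates 8 and 9, the values that changed sign were -0.12 for Col16a1, -0.79 for Col9a2, 0.093 for the Col4a1 to Col4a2 ratio and 0.26 for the Col6a3 to Col6a1 ratio in RvD6 against vehicle, then -0.039 for Col4a1, 0.0021 for Col4a2, 0.14 for Col16a1, 0.10 for Col9a3, 0.21 for Col8a1, 0.21 for Col8a2 and -0.40 for the Col6a3 to Col6a1 ratio in RvD6si against RvD6. In TPM, the levels of all 30 genes were higher by more than 1 SD. That is a change of unit, since TPM rescales all genes of a sample by 1 common factor. Removing the length trend took the median log2 fold change of the 30 genes from 0.59 to 0.45 in RvD6 against vehicle and from 0.25 to 0.12 in RvD6si against vehicle. No paired analysis was possible because each replicate number from 1 to 15 occurs in 1 group only. Genes with means near 10 counts, such as Col4a5, have intervals too wide to show moderate differences at this depth.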
